A study of Homo sapiens with 14 samples.

Results

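ZNF143 is the zinc finger protein targeted for degradation in this study, and the genes described here are ZNF143 itself, its paralog ZNF76, and THAP11, HCFC1 and OGT, which encode proteins that work with ZNF143 at promoters. The 5 genes were chosen by name, out of 19970 protein-coding genes on chromosomes 1 to 22 and X. A peak was assigned to a promoter when its centre lay from 2 kb (2000 bp) upstream to 1 kb (1000 bp) downstream of any annotated transcription start site of the gene (GENCODE release 44, hg38). Other peaks that overlapped the gene were counted as gene-body peaks. This gave 8 of the 20429 peaks found in untreated cells and 9 of the 35287 peaks found after treatment with dTAG-V1.

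ZNF143 recognises the Staf binding site (SBS), a long element whose core contains CCCANNATG (N is any base) and which is often preceded by a short submodule, ACTACA. ZNF76 carries a closely related zinc finger array. THAP11 is a DNA-binding protein of the THAP family that binds HCFC1 (host cell factor C1), and HCFC1 links DNA-bound factors to histone-modifying complexes. OGT, the O-GlcNAc transferase, adds N-acetylglucosamine to nuclear and cytosolic proteins and is also the enzyme that cleaves HCFC1. Loss of function of HCFC1, THAP11 or ZNF143 is known to lower MMACHC, a gene of intracellular cobalamin (vitamin B12) metabolism.

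Binding was measured by ChIP-seq, the sequencing of DNA recovered with an antibody, using a polyclonal anti-ZNF143 antibody (Proteintech). The study that reported these data concludes that this antibody also recognises CTCF, an insulator protein. The cells were HEK293T, an established human embryonic kidney line, in which ZNF143 carries an FKBP12F36V degron tag. The labels name a single clone. The compound dTAG-V1 binds the tag and directs the fusion protein to degradation. Cells were left untreated in 4 samples and received 0.5 µM of dTAG-V1 during 30 min in the other 4. The 6 CTCF samples of the series, 3 per condition, were not analysed here. The data analysed here are 1 peak list per condition, without values per replicate and without read depth. No spread between replicates, interval or test of the treatment can therefore be given for any peak, and values of both lists stand side by side as descriptions. ZNF143 protein was not measured in these data.

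All 5 genes had a promoter peak in both lists. Among all protein-coding genes, expressed or not, 40.5% had a promoter peak in the untreated list, 48.2% in the dTAG-V1 list and 37.2% in both. Peaks were ranked within each list by the score of the peak caller, a whole number made from its −log10 q-value. A promoter peak in the highest 10% of the untreated list was present at 2 of the 5 genes, ZNF143 and THAP11, against 10.1% of all protein-coding genes. In the dTAG-V1 list the same 2 genes had such a peak, against 13.4%. This count depends on the scale: ranked by fold enrichment, ZNF143 alone remained without treatment, whereas with dTAG-V1 HCFC1 was added, through a peak inside the gene. Fold enrichment, the height of a peak over its local background at the summit, spanned 4.46 to 26.5 at the 5 main promoters of untreated cells and 2.99 to 12.6 after dTAG-V1. Of all protein-coding genes, 672 had a promoter peak in the untreated list only and 2210 in the dTAG-V1 list only, and none of the 5 genes was among them.

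**Figure D1:**
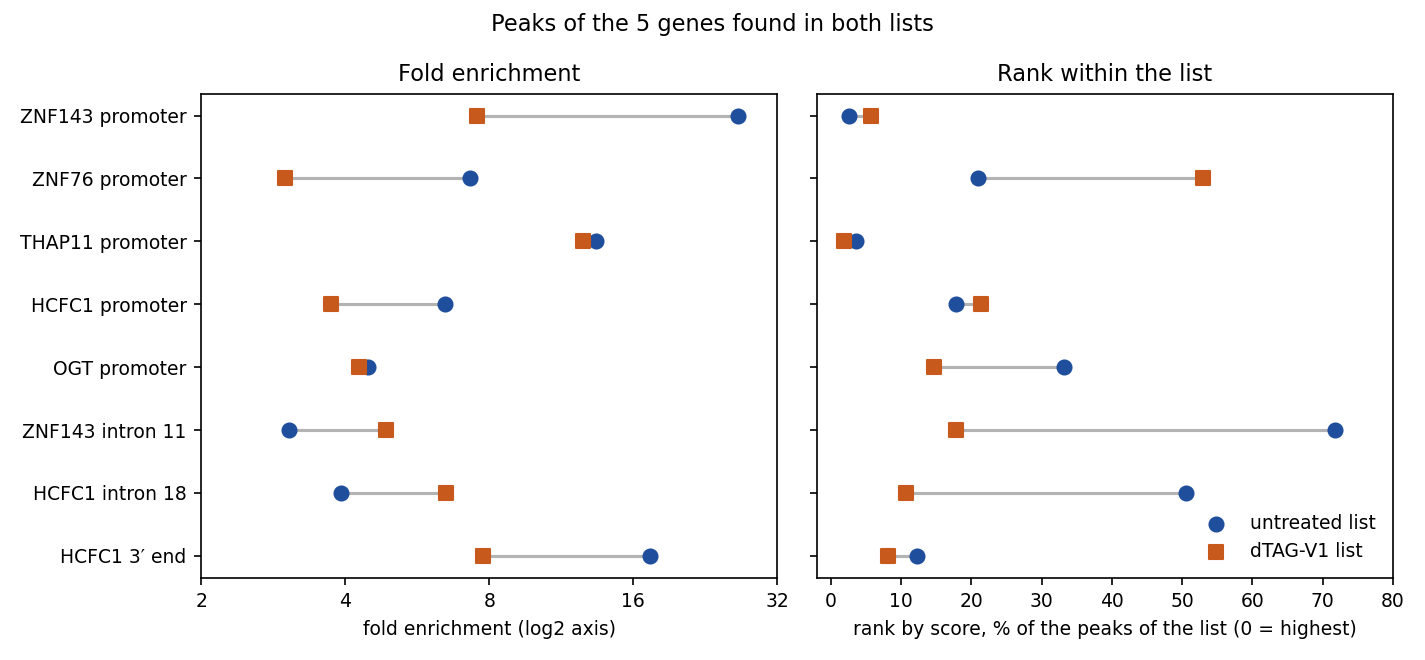
Fold enrichment (left, log2 axis) and rank by score as a percentage of the peaks of each list (right, 0 is the highest) for the 8 peaks of the 5 genes shared by the untreated (blue circles) and dTAG-V1 (orange squares) lists, 1 value per list. The ZNF143 promoter had 26.5 and 7.54 in fold enrichment, whereas the fold enrichment of THAP11 and OGT nearly coincides. In rank, OGT stands at 33.2% of the untreated and 14.7% of the dTAG-V1 list.

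The promoter of ZNF143 itself carried the highest peak of the 5 genes in untreated cells. ZNF143 (ENSG00000166478) lies on the plus strand at chr11:9460319-9528524 and has 17 annotated start sites. The untreated peak, chr11:9460467-9461163, had a score of 61795 and a fold enrichment of 26.5 and was ranked 524 of 20429. Its summit was 11 bp upstream of the canonical start site. After dTAG-V1 the peak, chr11:9460328-9461121, had a score of 1339, a fold enrichment of 7.54 and rank 2024 of 35287, with the summit 27 bp upstream of the same site. The fold enrichment in the dTAG-V1 list was thus 0.284 times that in the untreated list. The window also holds a start site of the lncRNA ENSG00000268403, and a single summit cannot tell the transcripts apart.

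No exact SBS core was found in the ZNF143 promoter peak of either list. Of the promoter peaks of all protein-coding genes, 11.9% before and 9.33% after dTAG-V1 hold an exact core. With 1 mismatch allowed, a match was centred 18 bp from the untreated summit and 2 bp from the dTAG-V1 summit. Such loose matches lie within 50 bp of the summit in 36.5% of all untreated promoter peaks. The site nearest to both summits (chr11:9460970-9460994, plus strand, 19 of its bases in annotated exons) is shown, with the 9 core positions in capitals, because it is the core with 1 mismatch nearest to the summits at the gene of the degraded factor. The peak of untreated cells holds 5 such matches.
ZNF143 promoter, 1 mismatch: ggcctcagaCACACTATGcgggttg

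ZNF76, the paralog, had a narrower and lower promoter peak. The gene (ENSG00000065029, chr6:35258909-35295985, plus strand) has 11 annotated start sites. In untreated cells the peak chr6:35259446-35259772 had a score of 783 and a fold enrichment of 7.28, at rank 4267. In the dTAG-V1 list the peak chr6:35259091-35259728 had a score of 105, a fold enrichment of 2.99 and rank 18692. These ranks correspond to 20.9% and 53.0% of lists that differ in length and in the replicates a peak needed, and they are no measure of a change. Both summits were close to the canonical start site, 109 and 85 bp upstream of it. No exact SBS core, ACTACA, CTCF core or ETS core (CCGGAAGT) was found in either peak, and the nearest core with 1 mismatch was 109 bp from the untreated summit.

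THAP11 had the highest-ranked promoter peak of the 5 genes after dTAG-V1, and its fold enrichment was close in both lists. The gene (ENSG00000168286) is a single exon of 1876 bases at chr16:67842320-67844195, inside the CENPT gene, which encodes a centromere protein and whose promoter window takes in the same peak. The untreated peak, chr16:67841835-67842350, had a score of 46585 and a fold enrichment of 13.3 at rank 734. The dTAG-V1 peak, chr16:67841790-67842348, had a score of 16031 and a fold enrichment of 12.6 at rank 672. The summits were 322 and 313 bp upstream of the start site and 9 bp apart. Unlike the other 4 promoters, that of THAP11 contained an exact SBS core. It also contained ACTACA and an ETS core, which are held by 21.6% and 10.7% of all untreated promoter peaks.

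For the search of degenerate sites, a 25-base SBS matrix was learned from untreated peaks on chromosomes that carry none of the 5 genes. It found 2 sites at THAP11, both on the minus strand and outside the exons of THAP11 and CENPT. They are shown because they are the only matrix sites at the 5 main promoters that lie in the peaks of both lists. Capitals mark the 9 core positions. The first site (chr16:67841990-67842014) is 4 bp from the untreated summit and 5 bp from the dTAG-V1 summit, and begins with the complete ACTACA submodule. The second (chr16:67842263-67842287) holds the exact core, 277 bp from the untreated summit.
THAP11, at the summit: actacaaatCCCGTGATGcctcgcg
THAP11, near the start site: actacgcccCCCACAATGccccgcg
A matrix site lies in 31.6% of untreated promoter peaks, in 20.7% of dTAG-V1 promoter peaks and in 9.06% of all 35116 RefSeq promoters of 300 bases. The untreated share includes peaks that the matrix was learned from, and the regions differ in length. The best site at THAP11 scored higher than the best site of 98.6% of untreated promoter peaks.

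The 250 bases before the THAP11 start site are given below as RefSeq lists them (GRCh38.p14, chr16:67842070-67842319, plus strand). They show the near site in its context: capitals mark the ETS core and, downstream of it, the SBS core, which reads in the opposite direction on this strand. In RefSeq promoters of 300 bases, which reach 50 bases past the start site, CCGGAAGT was found in 4.14% and the exact SBS core in 4.63%.
THAP11 promoter: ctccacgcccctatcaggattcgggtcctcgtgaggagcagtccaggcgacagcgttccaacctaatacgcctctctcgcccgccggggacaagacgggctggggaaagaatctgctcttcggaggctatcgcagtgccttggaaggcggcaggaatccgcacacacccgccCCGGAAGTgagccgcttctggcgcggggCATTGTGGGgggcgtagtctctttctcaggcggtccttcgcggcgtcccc

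HCFC1 had the widest promoter peak and the largest distance between the summits of both lists. The gene (ENSG00000172534, chrX:153947557-153971818, minus strand) shares this peak with the promoter window of TMEM187, which is transcribed in the other direction. In untreated cells the peak chrX:153970510-153971839 was 1330 bp wide, with a score of 1156, a fold enrichment of 6.45 and rank 3653. Its summit was 1170 bp downstream of the canonical start site, at the last coding base of exon 1. In the dTAG-V1 list the peak chrX:153970689-153971814 had a score of 239, a fold enrichment of 3.74 and rank 7542, and its summit was in the untranslated part of exon 1, 742 bp downstream of the start site. The summits were thus 428 bp apart. A distance of at most that size was found in 96.6% of the 6238 overlapping promoter pairs, whose median was 26 bp.

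A single matrix site was found in the HCFC1 promoter peak of untreated cells, in intron 1 and 18 bp from the untreated summit (chrX:153970618-153970642, plus strand). The narrower dTAG-V1 peak does not reach it. The matrix p of the site was 8.29e-06, near the cutoff of 1e-05, and its core lacks the ATG. The site is shown because it is at the summit found only in untreated cells.
HCFC1, at the untreated summit: agccgaagaCCCAGCGGGctttgca
Both peaks hold 5 matches of AAGATGGC, a YY1-like motif, spaced by 185 to 225 bp. These matches lie away from the summits, at 339 to 1163 bp from the untreated and 89 to 735 bp from the dTAG-V1 summit. The motif is in 7.69% of untreated promoter peaks. Only 3 of all 20429 untreated peaks and 3 of all 35287 dTAG-V1 peaks hold 5 or more matches, the HCFC1 peak included. Wider peaks have more room for matches, and these counts were not corrected for width. This search was added after the data were seen. YY1, a zinc finger factor of many housekeeping promoters, is also known to bind HCFC1. Whether YY1 binds at this peak was not tested.

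OGT had the lowest of the 5 main promoter peaks in untreated cells, and its fold enrichment and score were nearly equal in both lists. The gene (ENSG00000147162) lies at chrX:71533087-71575892 on the plus strand. The untreated peak, chrX:71532806-71533298, had a fold enrichment of 4.46 and rank 6776. The dTAG-V1 peak, chrX:71532772-71533357, had a fold enrichment of 4.27 and rank 5199. The score was 318 in both. The summits were 97 and 108 bp upstream of the canonical start site. The ACTACA submodule was found 38 bp from the untreated summit and 27 bp from the dTAG-V1 summit, but with no SBS core or matrix site beside it. A core with 1 mismatch lay apart from it, 67 bp from the untreated and 78 bp from the dTAG-V1 summit. Such loose cores are in 74.9% of untreated promoter peaks. ACTACA within 50 bp of the summit is a feature of 12.5% of untreated promoter peaks and 10.1% of dTAG-V1 promoter peaks. The 233 bases before the first annotated exon (chrX:71532854-71533086, from the RefSeq promoter, GRCh38.p14) are shown so that the lone submodule, in capitals, can be compared with the full sites of THAP11.
OGT promoter: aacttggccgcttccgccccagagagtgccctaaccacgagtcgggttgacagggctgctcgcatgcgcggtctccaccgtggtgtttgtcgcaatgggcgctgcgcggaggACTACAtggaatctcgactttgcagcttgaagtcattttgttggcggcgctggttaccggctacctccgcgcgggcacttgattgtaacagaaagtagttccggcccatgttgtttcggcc

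**Figure D2:**
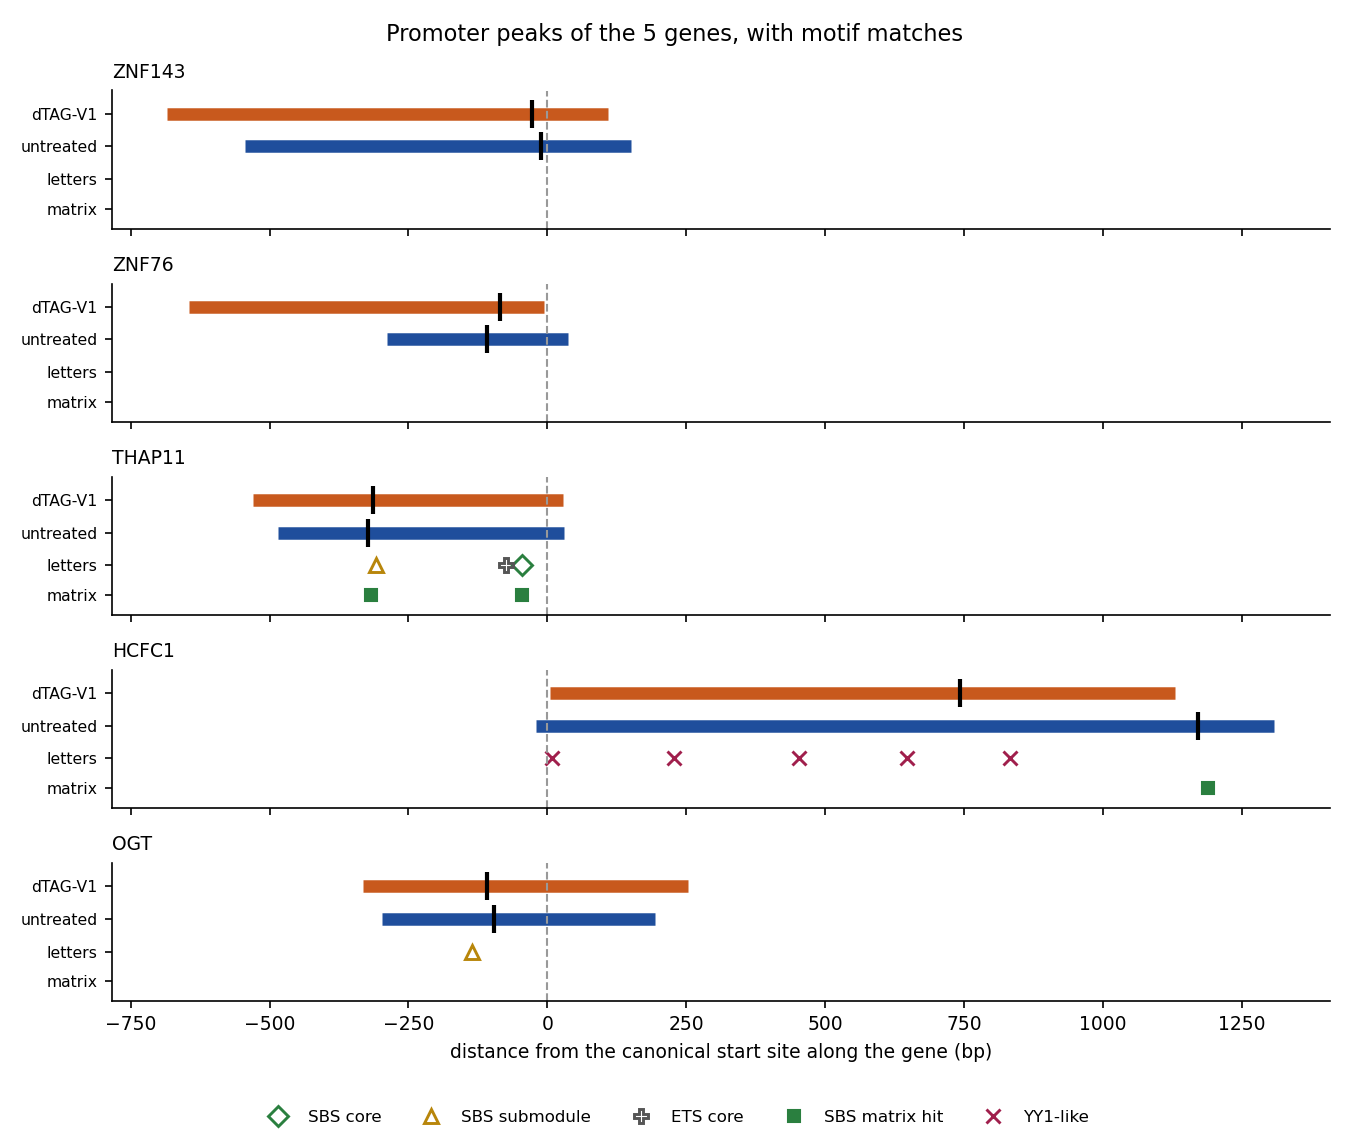
Promoter peaks of the 5 genes in the untreated (blue) and dTAG-V1 (orange) lists, with the summit as a black tick, by distance in bp from the canonical start site (dashed line) along the gene, and the exact motif matches and matrix hits below. THAP11 has a matrix hit at both summits, HCFC1 has one only at the untreated summit, 1170 bp downstream, and ZNF143 and ZNF76 have no match of the motifs drawn, which leave out SBS cores with 1 mismatch.

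Beyond the promoters, ZNF143 and HCFC1 had peaks inside or at the end of the gene, and ZNF76, THAP11 and OGT had none. A gene-body peak was present at 2 of the 5 genes in each list, against 19.0% of protein-coding genes before and 31.3% after dTAG-V1. In intron 11 of ZNF143, the untreated peak chr11:9506768-9507210 had a score of 80 and a fold enrichment of 3.05, at rank 14654. The dTAG-V1 peak at the same place (chr11:9506626-9507154) had a score of 274 and a fold enrichment of 4.86, at rank 6279. This peak is thus higher in the dTAG-V1 list on every scale, whereas the promoter peak of the same gene is lower. A further peak in the dTAG-V1 list alone, chr11:9528003-9528698, had its summit in the untranslated part of exon 16. Its fold enrichment of 2.33 and rank of 27084 place it among the weaker peaks of the list.

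CTCF is an insulator protein with a DNA element of its own, and its ChIP-seq is part of the same series. The reporting study describes signal of this antibody at CTCF sites that stayed, and grew, after ZNF143 was depleted. Whether a peak described here marks CTCF or ZNF143 was not tested. The intron 11 peak contains an exact match of the 12-base CTCF core, 42 bp from the untreated summit and 27 bp from the dTAG-V1 summit (site chr11:9506923-9506948, minus strand, intronic). An exact CTCF core within 50 bp of the summit is a feature of 3.18% of untreated and 8.56% of dTAG-V1 peaks. The site is shown with the core in capitals.
ZNF143, intron 11: gaaactgCCACTAGGTGGCaccaaac

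At the 3′ end of HCFC1, the untreated peak chrX:153947279-153947717 had a score of 3568 and a fold enrichment of 17.3, at rank 2516, higher than the peak at the HCFC1 promoter. Its summit lay 28 bp past the annotated end of the gene. The dTAG-V1 peak (chrX:153947085-153947782) had a score of 633 and a fold enrichment of 7.77, at rank 2860. It contains 3 CTCF cores with 1 mismatch each, 25, 56 and 125 bp from the dTAG-V1 summit. A CTCF core with at most 1 mismatch is in 15.1% of all untreated and 29.4% of all dTAG-V1 peaks. Within 50 bp of the summit it is in 9.04% and 24.4%. The 3 cores are shown in capitals to be set against the exact core of ZNF143 intron 11. The fold enrichment at these places differs in opposite directions between the lists. The sites are chrX:153947457-153947482 (plus strand), chrX:153947538-153947563 (minus strand, 7 bases in the last exon) and chrX:153947357-153947382 (minus strand).
HCFC1 3′ end, 25 bp: aggtctcCCTCCAGGGGGCtcccgtg
HCFC1 3′ end, 56 bp: gaaataaCCACTAGGTGTCtcactgt
HCFC1 3′ end, 125 bp: ccagggtCCAGCAGGTTGCttggtag

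A second HCFC1 peak counted as a promoter peak only because of a minor start site at chrX:153954121. In the canonical transcript it is in intron 18. The untreated peak (chrX:153953189-153953705) had a score of 153 and a fold enrichment of 3.92, at rank 10330, and the dTAG-V1 peak (chrX:153953319-153953740) had a score of 431 and a fold enrichment of 6.51, at rank 3793. No exact SBS core, matrix site, CTCF core, ACTACA or ETS core was found in it. In the dTAG-V1 list this inner peak outranked the main promoter of the gene, whereas in the untreated list the main promoter was ahead.

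**Figure D3:**
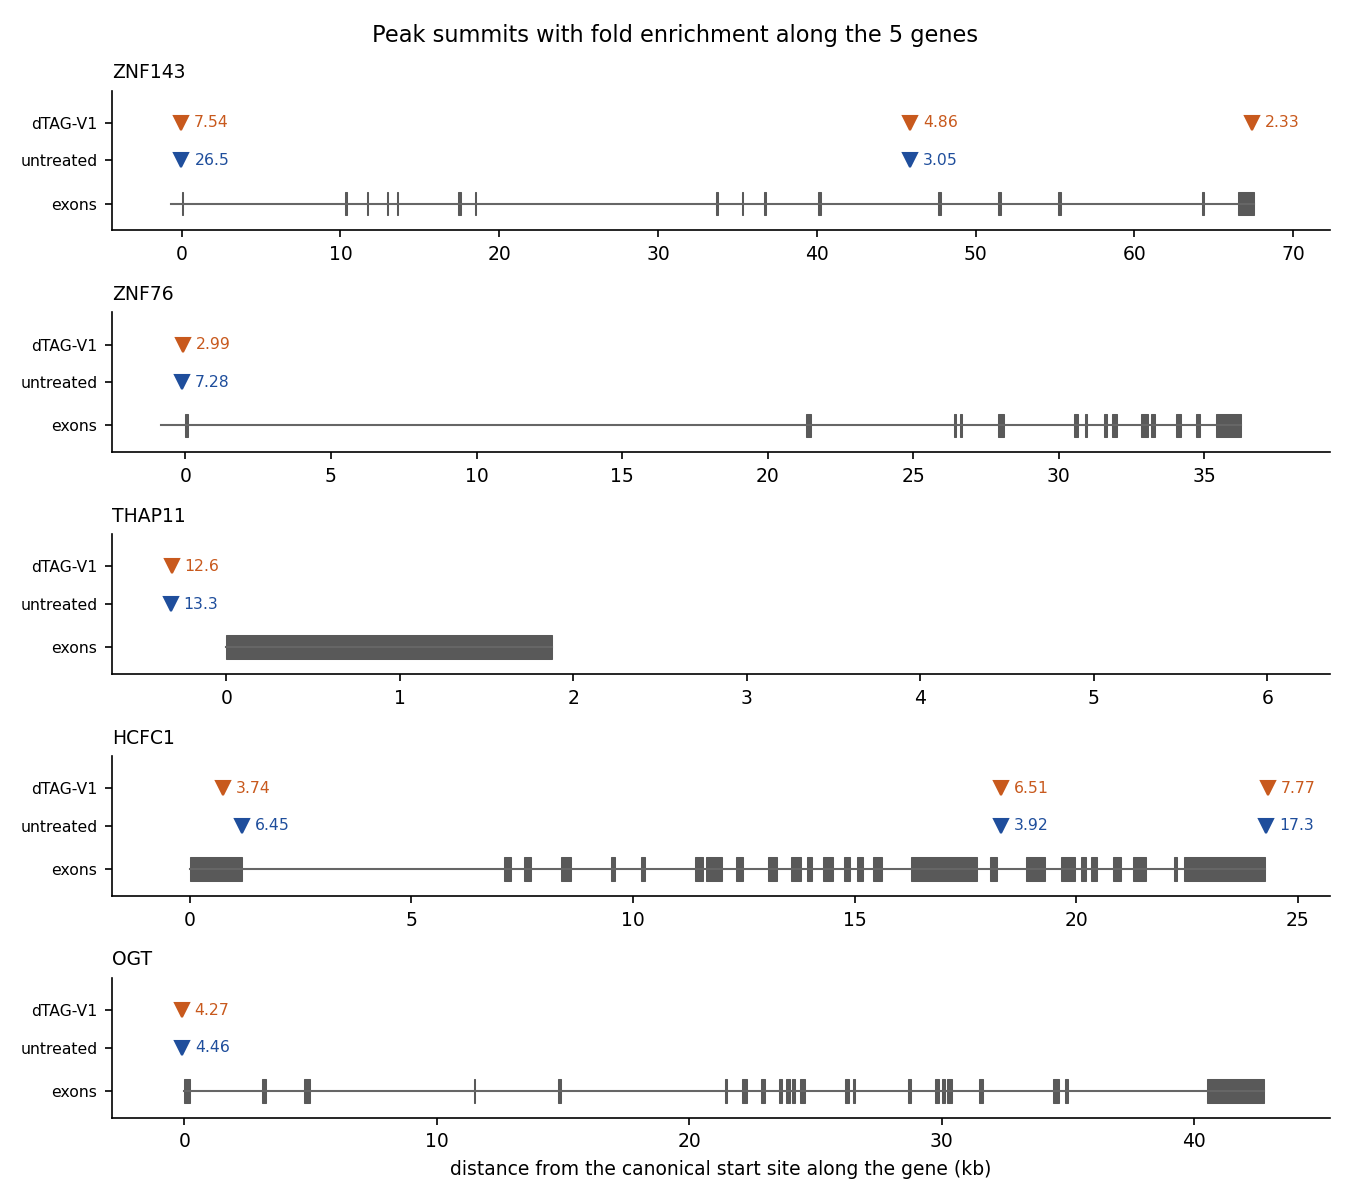
Summits of all peaks of the 5 genes in the untreated (blue) and dTAG-V1 (orange) lists, with the fold enrichment beside each, by distance in kb from the canonical start site along the gene (grey boxes, exons of the canonical transcript). ZNF76, THAP11 and OGT have promoter peaks only, and the dTAG-V1 list adds 1 peak, in the last exon of ZNF143.

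To place these differences among the peaks shared by both lists, the ratio of fold enrichment, dTAG-V1 list over untreated list, was taken. It covers the 14563 pairs of peaks that overlapped one to one and leaves out all other peaks, such as those in a single list. This comparison was chosen after the data were seen, and each list keeps its own depth and threshold. The median log2 ratio was −0.03 for all pairs and −0.21 for the 6238 pairs at promoters. The ratio of the ZNF143 promoter, −1.81, was among the lowest, with 2.47% of all pairs and 2.58% of promoter pairs below it. ZNF76 followed at −1.29, with 8.90% of promoter pairs below it, and the main HCFC1 promoter at −0.79, with 19.6%. THAP11 at −0.09 and OGT at −0.07 were above the promoter median, with 60.9% and 62.6% of promoter pairs below them. ZNF143 intron 11 at 0.67 and HCFC1 intron 18 at 0.73 were near the upper end of all pairs, with 93.4% and 95.2% below them.

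Pairs were then grouped by the motif within 50 bp of either summit, with at most 1 mismatch allowed in the CTCF core. Of all 20429 untreated peaks, 4951 hold a matrix site that near, and many of them are in no pair. The groups thus describe only peaks found in both lists. They also take in untreated peaks that the matrix was learned from. With an SBS matrix site and no CTCF core, 2542 pairs had a median log2 ratio of −0.59, and 94.4% were lower in the dTAG-V1 list. With a CTCF core and no matrix site, 2132 pairs had a median of 0.48, and 14.0% were lower. The 9716 pairs with neither had a median of 0.00. THAP11, with its site at the summit, belongs to the SBS pairs but had a higher ratio than most of them, with 90.2% of that group below it. The main HCFC1 promoter was an SBS pair by its untreated summit alone, and its summits were 428 bp apart. Its ratio was close to the middle of that group, with 41.1% below, but does not compare the same position. ZNF143 intron 11 was within the range of the CTCF pairs (72.3% below). The 3′ end of HCFC1 was a CTCF pair by its letters, but its ratio of −1.16 was lower than that of nearly all of them, with 1.50% below. The ZNF143 promoter had neither motif, and 1.29% of such pairs were below it.

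**Figure D4:**
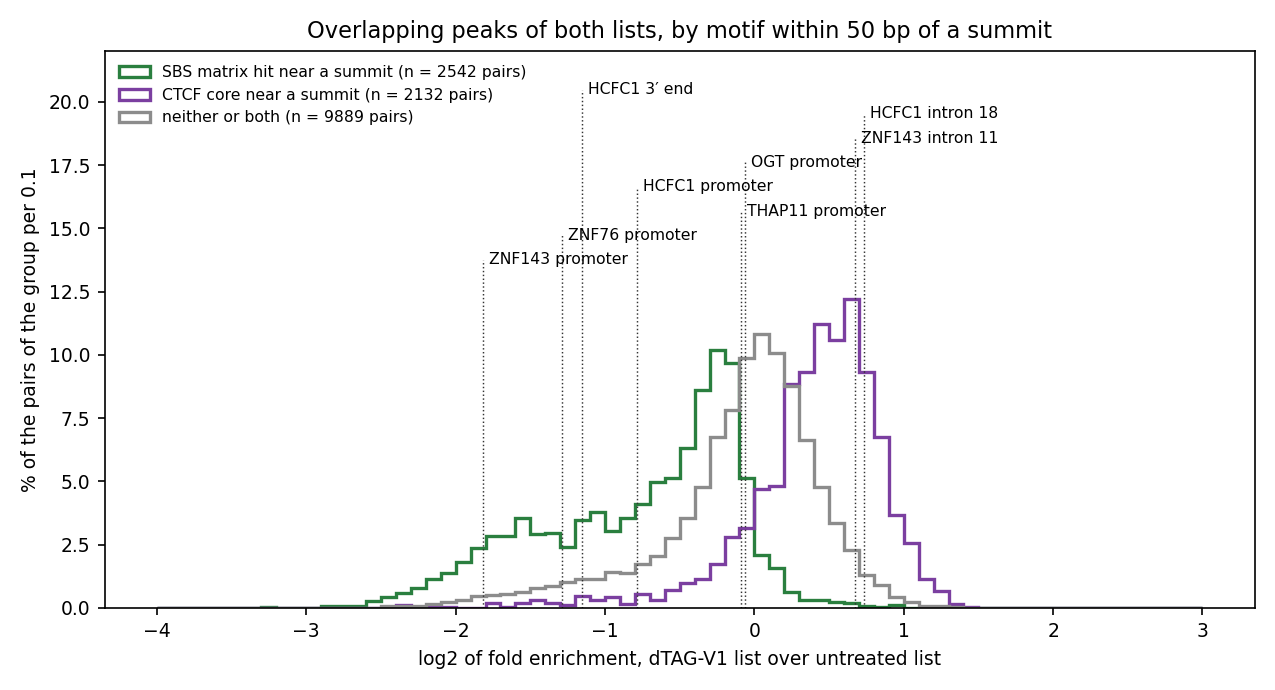
Distribution of the log2 ratio of fold enrichment (dTAG-V1 list over untreated list) in pairs of overlapping peaks, as a percentage of each group per 0.1, for pairs with an SBS matrix hit (green, n = 2542), with a CTCF core (purple, n = 2132) or with neither or both (grey) within 50 bp of a summit, with the 8 pairs of the 5 genes as dotted lines. The ZNF143 promoter lies in the low tail at −1.81, THAP11 and OGT lie near 0 and the peaks in ZNF143 intron 11 and HCFC1 intron 18 lie at 0.67 and 0.73.

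Partner and pathway genes were examined next, as 5 lists with 59 genes in all. These were chromatin partners of HCFC1, the other THAP genes, and genes of the hexosamine pathway with O-GlcNAc cycling. Genes of intracellular cobalamin metabolism and other proteins linked to ZNF143 made up the rest. A promoter peak was present at 43 of them (72.9%) without treatment and at 49 (83.1%) with dTAG-V1, beside 40.5% and 48.2% of all protein-coding genes. Of the genes with a peak, the median rank was 4692 in the untreated list, beside 6170 for all protein-coding genes with a promoter peak, and 7249 beside 12341 in the dTAG-V1 list. The lists are short and were not tested. The background takes in all protein-coding genes, expressed or not, and expression was not measured in these data.

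The chromatin partners of HCFC1 had a promoter peak at 21 of 26 genes in untreated cells and at 23 after dTAG-V1. The best-ranked were KMT2B, a histone H3 lysine 4 methyltransferase, at rank 172 with a fold enrichment of 34.7, ASXL1, a cofactor of the deubiquitinase BAP1, at rank 245 with 27.5, and MEN1 (menin), at rank 333 with 24.6. In the dTAG-V1 list they had 23.6, 25.7 and 22.3. BAP1 itself, FOXK1 and E2F1 had no promoter peak in either list. Of the 11 THAP genes other than THAP11, 10 had a promoter peak in each list. THAP4 had a fold enrichment of 24.8 without treatment and 5.01 with dTAG-V1, THAP12 had 17.2 and 6.71, and THAP2 had 11.2 and 3.91. THAP3 had no promoter peak in either list.

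Of 8 genes of the hexosamine pathway, which makes the sugar donor of OGT, and of O-GlcNAc cycling, 3 had a promoter peak in untreated cells and 5 after dTAG-V1, only 2 of them in both lists. This is close to the background. NAGK, N-acetylglucosamine kinase, had a fold enrichment of 25.9 without treatment and 8.20 with dTAG-V1. OGA, the enzyme that removes the sugar that OGT adds, had 14.0 and 3.82, at ranks 2459 and 6652, so that its untreated peak was higher than that of OGT. PGM3, a phosphoglucomutase of the pathway, had 5.98 in the untreated list alone. GFPT1, the entry enzyme of the pathway, and UAP1L1 had no promoter peak in either list.

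Of 11 genes of intracellular cobalamin metabolism, 7 had a promoter peak in untreated cells and 9 after dTAG-V1. MMACHC ranked 41 of 20429 in the untreated list with a fold enrichment of 30.5, and 272 with 25.3 in the dTAG-V1 list. MTR, methionine synthase, ranked 257 with 33.9 and 114 with 30.3. MMAB, an adenosyltransferase, followed at rank 5807 with 5.44, and 4.62 in the dTAG-V1 list. MMUT, the mitochondrial mutase that uses cobalamin, had no promoter peak in either list. Of the 3 other genes linked to ZNF143, CHD8 had a fold enrichment of 6.54 without treatment and 6.02 with dTAG-V1, RBPJ had 3.03 and 2.54, and NOTCH1 had no promoter peak.

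**Figure D5:**
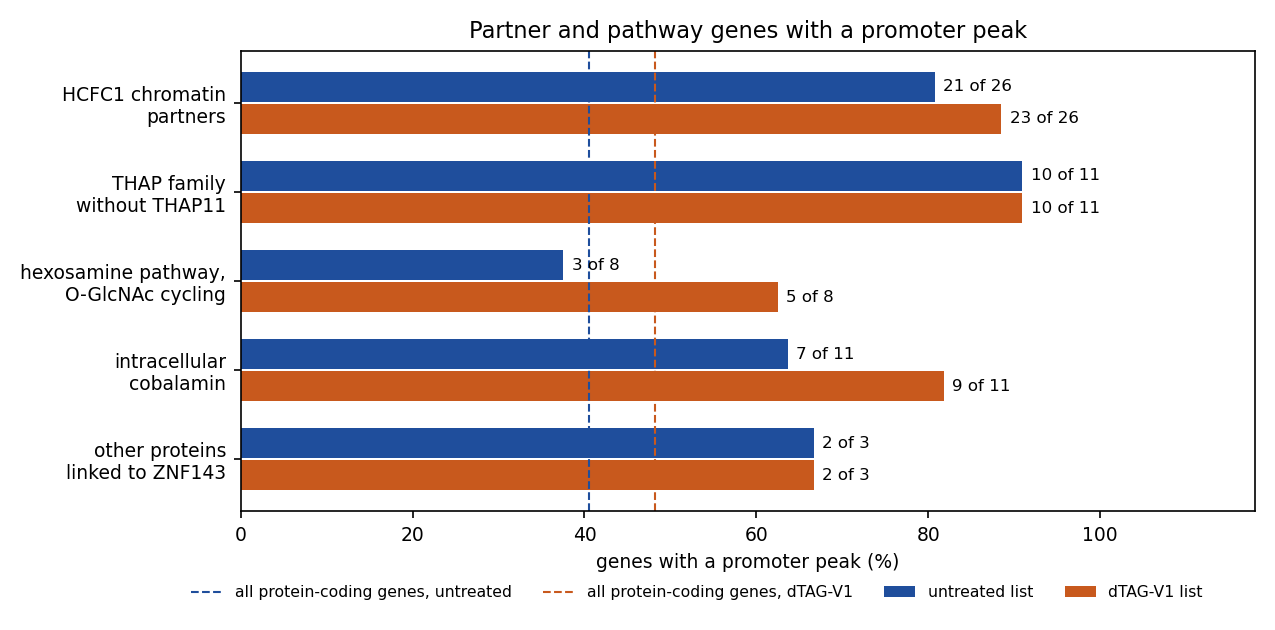
Percentage of the genes of each list with a promoter peak in the untreated (blue) and dTAG-V1 (orange) peak lists, with the number of genes at the bar and the percentage of all protein-coding genes as dashed lines (40.5% and 48.2%). The HCFC1 partners, the THAP family, the cobalamin genes and the other proteins linked to ZNF143 lie above both lines. The hexosamine genes lie on either side of them with 3 and 5 of 8.

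Among the 7424 other genes with a promoter peak in both lists, those closest to each of the 5 genes in rank (smallest sum of the absolute rank differences) were DGCR8 (sum of 182) and TOE1 (461) for ZNF143, AGK (171) and CENPU (344) for ZNF76, RBL2 (25) and FTSJ1 (29) for THAP11, TPD52L2 (54) and EMG1 (64) for HCFC1, and DDX17 (124) and RNF40 (265) for OGT. DGCR8, a cofactor of microRNA processing, ranked 680 and 2050, close to the ranks of 524 and 2024 of ZNF143. RBL2, a pocket protein of the cell cycle, ranked 746 and 659, close to 734 and 672 of THAP11. For HCFC1 the ranks compared came from different peaks, the main promoter in the untreated list and the inner peak in the dTAG-V1 list, out of 7423 genes.

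ZNF143 and ZNF76 were also compared as proteins, because the antibody is polyclonal. The proteins translated from the canonical transcripts have 638 and 570 residues and 7 zinc fingers of the C2H2 pattern each. They are identical at 345 of 546 aligned residues (63.2%). Identity was 85.1% over the 202 residues from the first to the last finger, 54.5% before the fingers and 46.4% after them. Whether the antibody binds ZNF76 was not tested in these data, and the labels name a degron tag on ZNF143 alone. THAP11, HCFC1 and OGT have 314, 2035 and 1046 residues and no match of the C2H2 pattern.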

How the data were processed

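ChIP-seq peaks for ZNF143 were read from 2 deposited narrow peak lists in hg38, 1 per condition, each covering 4 samples. Per the methods, the authors aligned read pairs with BWA, filtered with SAMtools, removed duplicates with Picard and called peaks with MACS2, for which no control library is named. The methods state that peaks had to be present in each untreated replicate or in any dTAG-V1 replicate. Peak names in the untreated list say DMSO, and the labels were followed. In the deposited lists the score is an integer made from the q-value, the −log10 q-value is the authors' (lowest 2.01 in each list), and fold enrichment is a ratio over local background. Depth is unknown, and a deeper library gives more peaks and higher scores. A merged list hides the spread between replicates. The number of per-replicate columns left unused is 0.

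Centres, summits and overlaps (at least 1 bp) were computed with pandas 2.3.3, numpy 2.4.6 and scipy 1.17.1 in Python 3.11.15, and sequences were read with pysam 0.24.0 and samtools 1.23.1, coordinates counted from 1. Motifs were searched on both strands of whole peaks. Some YY1-like matches at HCFC1 overlap loose SBS matches. The SBS matrix started from exact cores within 50 bp of untreated summits and was refined in 2 rounds to 970 sites, with hits at p 1e-05 under the base frequencies of the genome. The number of rounds was set after the matrices were seen. Proteins were aligned with biopython 1.88 (BLOSUM62, gap open 11, extend 1). Scripts were tested on simulated data. The genes, lists and rules were chosen with earlier results of these data known. The text names all peaks of the 5 genes, genes sharing their promoters, the 3 best-ranked genes of each list with those lacking a peak, and the 2 genes nearest in rank. RefSeq promoters were matched for 3 of the 5 genes, ZNF143, THAP11 and OGT.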

Additional observations from a re-analysis of the deposited data

How the results depend on the processing

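No paired analysis was possible because the lists hold no values per replicate, and no replicate could be left out for the same reason. With −log10 q of at least 5, a window of 500 b on either side, or the canonical start site alone, all 5 genes kept a promoter peak in each list. The share of protein-coding genes with a promoter peak moved under these settings, in that order, to 37.7%, 34.8% and 35.4% in the untreated list, to 43.6%, 39.2% and 41.2% in the dTAG-V1 list and to 33.7%, 30.9% and 32.0% in both lists. It was 30.0% in both lists when peaks had to overlap by 50% of each, and under that rule 5 of 6 promoter peaks kept their partner, with ZNF76 lost. The 59 partner and pathway genes kept between 40 and 42 promoter peaks in the untreated list and between 42 and 47 in the dTAG-V1 list. The median distance from summit to start site, 99.5 bp, became 211 bp with the canonical site, and 108.5 bp when the inner HCFC1 peak was left out, a setting added after seeing the data. With the summit required inside the gene, 1 of 2 untreated gene-body peaks remained.

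Motif counts depended most on the rule. An exact SBS core was in 1 peak of each list, beside 11.7% of all untreated and 6.74% of all dTAG-V1 peaks. With 1 mismatch it was in 7 untreated and 8 dTAG-V1 peaks, beside 72.4% and 67.4% of all peaks. The matrix found 2 untreated peaks and 1 dTAG-V1 peak, beside 28.7% and 10.9%, the untreated share including peaks it was learned from. With 5 rounds of refinement, also added after seeing the data, it found 3 untreated and 2 dTAG-V1 peaks. The ZNF143 promoter peak was the addition in each list. With the main matrix its best position had a matrix p of 1.03e-05, just above the cutoff of 1e-05. That position lay 496 bp from the untreated and 480 bp from the dTAG-V1 summit. Within 50 bp of the summit, an exact SBS core was in 0 peaks of either list. The exact CTCF core was in 1 peak of each list instead of 2, beside 4.49% and 9.58% of all peaks. Ranked by fold enrichment, ZNF143 stood at 1337 instead of 524 and THAP11 at 2774 instead of 734 in the untreated list. In the dTAG-V1 list THAP11 stood at 1688 instead of 672, the main HCFC1 promoter at 12002 instead of 7542 and OGT at 8201 instead of 5199. By this ranking the genes with a promoter peak in the highest 10% were 1 of 5 in the untreated list (ZNF143) and 3 of 5 in the dTAG-V1 list (ZNF143, THAP11 and HCFC1, by its inner peak), instead of 2 in each. Identity of ZNF143 and ZNF76 was 60.5% over the shorter protein. Without depth, a difference between the lists of a few-fold cannot be separated from a difference in sequencing or in the number of replicates a peak needed.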
